A study of Danio rerio with 3 samples.

Results

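Immediate early genes are transcribed within minutes of a stimulus without new protein synthesis, and their mRNAs are mostly short-lived. They include the zinc finger factors of the Egr family, the Ier2 proteins, the nuclear receptor Nr4a1, the Krüppel-like factors Klf2 and Klf6, and the phosphatase Dusp1, which switches off MAP kinases and so closes the loop that induced it. In blood, Egr1 is known from the mouse for restraining division and exit of stem cells, Nr4a1 as a reporter of antigen receptor signaling in lymphocytes, and Klf2 for keeping resting lymphocytes quiescent. Many of them are also known to be induced while tissue is dissociated and sorted.

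Of the 32057 genes measured, 10 such genes outside the AP-1 family were examined, *egr1*, *egr2a*, *egr2b*, *egr3*, *ier2a*, *ier2b*, *nr4a1*, *klf2a*, *klf6a*, and *dusp1*, chosen by symbol. The symbol itself, in lower or upper case, was found for 8 of them, and *egr2b* and *klf6a* were found under EGR2 and KLF6, which RefSeq lists as their synonyms. All 10 passed the filter used for counts over many genes, a mean of at least 1 RPM over the libraries, as did 12339 genes in all. RPM is the number of reads of a gene scaled to the reads counted on all genes of the library. It is not corrected for transcript length, and levels are therefore compared between libraries within a gene and not between genes.

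The libraries come from adult zebrafish, labelled wild type, that carried 2 reporter transgenes, *runx1:mCherry* and *gata2a:GFP*. Cells of the low side scatter fraction of the kidney were sorted into *gata2a*+ *runx1*+ cells, named double-positive cells here, *gata2a*- *runx1*+ cells, named *runx1* single-positive cells, and *gata2a*+ *runx1*- cells, named *gata2a* single-positive cells. The labels call these HSCs, progenitors primed to the erythroid and/or myeloid lineages, and progenitors primed to the lymphoid lineage. The GFP line also marks other blood cells and vascular endothelium, the mCherry line is driven by an enhancer of mouse *Runx1*, and how many fish were pooled and whether the 3 populations came from the same fish and sort are not given in the sources used here. The fish kidney was dispersed by pipetting on ice, and erythrocytes were lysed with water before the sort.

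There was 1 library per population, so that no difference has a replicate check, and fewer expressing cells cannot be told apart from less mRNA per cell. The libraries held between 8094670 and 8205803 reads, and a floor of 3 reads is between 0.366 and 0.371 RPM. All 32057 deposited values of each library equalled a whole number of reads within the rounding to 2 decimals, and the reads given below were obtained from them. Intervals are 95% intervals of the reads, Wilson for a level and exact for a ratio. They cover counting error only, since copies made by PCR are not independent molecules. The *gata2a* transcript itself followed the GFP gate, with 344 RPM in double-positive and 1354 RPM in *gata2a* single-positive cells against 11.8 RPM in *runx1* single-positive cells. The *runx1* transcript was low in all 3 libraries, with 39 reads in double-positive, 29 reads in *runx1* single-positive, and 19 reads in *gata2a* single-positive cells.

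The early response genes were lowest in *runx1* single-positive cells, all 10 of them, and 7 were highest in double-positive cells. The other three, *egr2b*, *egr3*, and *klf2a*, were highest in *gata2a* single-positive cells. Of all genes tested, 35.8% were lowest in *runx1* single-positive cells and 31.1% were highest in double-positive cells. The plot of RPM by library shows this order gene by gene.

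**Figure D1:**
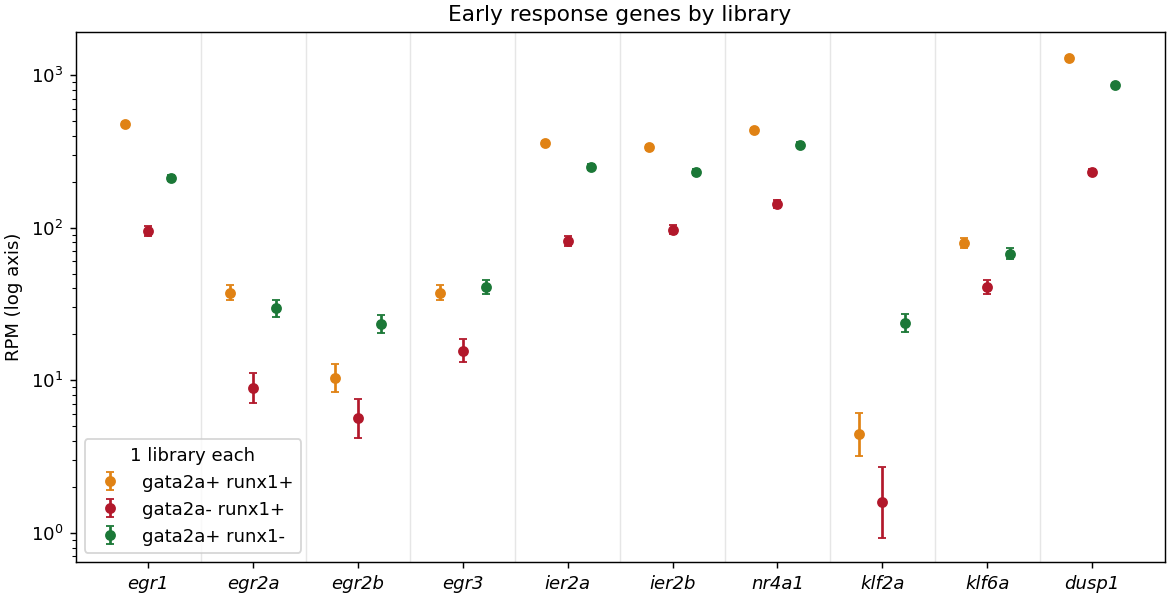
RPM of the 10 early response genes on a log axis, with 1 point for each library (double-positive, *runx1* single-positive, and *gata2a* single-positive cells from left to right within a gene) and bars for the 95% Wilson interval of the reads. The middle point, *runx1* single-positive cells, is the lowest for all 10 genes, and *klf2a* has the widest intervals because it rests on 36, 13, and 192 reads.

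Egr1 (ENSDARG00000037421) is a zinc finger factor that binds GC-rich promoters. *egr1* had 475 RPM in double-positive cells (460 to 490), 94.8 RPM in *runx1* single-positive cells (88.4 to 102), and 212 RPM in *gata2a* single-positive cells (202 to 223). It was thus 5.01-fold higher in double-positive than in *runx1* single-positive cells (95% interval 4.64 to 5.42) and 2.24-fold higher than in *gata2a* single-positive cells (2.11 to 2.37). It was the only one of the 10 genes over 2-fold higher in double-positive cells than in both other populations. How many of all genes tested were so was not counted.

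*egr2a* and *egr2b* are the zebrafish copies of mammalian Egr2, which is best known from hindbrain patterning and myelinating glia. *egr2a* (ENSDARG00000044098) had 37.3 RPM in double-positive cells, 8.90 RPM in *runx1* single-positive cells, and 29.5 RPM in *gata2a* single-positive cells. *egr2b* (ENSDARG00000042826) had 10.3 RPM in double-positive cells, 5.61 RPM in *runx1* single-positive cells, and 23.4 RPM in *gata2a* single-positive cells. The copies therefore differed in which population held their highest value. *egr2a* was 4.19-fold higher in double-positive than in *runx1* single-positive cells (3.24 to 5.49), and *egr2b* was 1.84-fold higher (1.27 to 2.70). Against *gata2a* single-positive cells, *egr2a* in double-positive cells was 1.26-fold higher (1.06 to 1.5), whereas *egr2b* was 2.26-fold lower (1.74 to 2.96).

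Egr3 is a further member of the family, induced in lymphocytes by antigen receptor signals. *egr3* (ENSDARG00000089156) had 37.4 RPM in double-positive cells (33.4 to 41.9), 15.6 RPM in *runx1* single-positive cells (13.1 to 18.5), and 40.9 RPM in *gata2a* single-positive cells (36.7 to 45.5). It was 2.40-fold higher in double-positive than in *runx1* single-positive cells (1.95 to 2.97), an interval that reaches under 2-fold. With these reads no difference could be detected between double-positive and *gata2a* single-positive cells, whose ratio was 0.915 with an interval from 0.781 to 1.07. Fisher's exact test with Benjamini-Hochberg adjustment gave an adjusted p of 0.361 there. *egr4*, the remaining gene of the family, had 4 reads in double-positive cells and none in the other libraries, and did not pass the filter.

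Ier2 is a small nuclear protein induced by growth factors, with 2 zebrafish copies. *ier2a* (ENSDARG00000099195) had 358 RPM in double-positive cells, 81.7 RPM in *runx1* single-positive cells, and 250.0 RPM in *gata2a* single-positive cells. *ier2b* (ENSDARG00000086881) had 336 RPM in double-positive cells, 96.6 RPM in *runx1* single-positive cells, and 231 RPM in *gata2a* single-positive cells. Both copies kept the same order of libraries. Double-positive cells exceeded *runx1* single-positive cells 4.38-fold for *ier2a* (4.03 to 4.78) and 3.48-fold for *ier2b* (3.21 to 3.77). They exceeded *gata2a* single-positive cells 1.43-fold for *ier2a* (1.35 to 1.52) and 1.46-fold for *ier2b* (1.37 to 1.55), under the limit of 2-fold.

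Nr4a1 is an orphan nuclear receptor. *nr4a1* (ENSDARG00000000796) had 435 RPM in double-positive cells (421 to 449), 143 RPM in *runx1* single-positive cells (135 to 151), and 349 RPM in *gata2a* single-positive cells (336 to 362). Double-positive cells were 3.05-fold higher than *runx1* single-positive cells (2.85 to 3.26) and 1.25-fold higher than *gata2a* single-positive cells (1.19 to 1.31). Its relatives differed from it in order. The NR4A2 gene that was read (ENSDARG00000044532) had 20.2 RPM in double-positive cells, 13.0 RPM in *runx1* single-positive cells, and 34.5 RPM in *gata2a* single-positive cells. *nr4a3* was also highest in *gata2a* single-positive cells, 2.73-fold above double-positive cells.

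The Krüppel-like factors include the gene with the fewest reads, *klf2a*, and the one whose highest and lowest libraries were closest, *klf6a*. *klf2a* (ENSDARG00000042667) had 4.43 RPM in double-positive cells (3.20 to 6.13), 1.58 RPM in *runx1* single-positive cells (0.926 to 2.71), and 23.7 RPM in *gata2a* single-positive cells (20.6 to 27.3). It was 5.35-fold lower in double-positive than in *gata2a* single-positive cells (3.73 to 7.87) and 2.80-fold higher than in *runx1* single-positive cells (1.45 to 5.75). Its copy *klf2b* was likewise lower, 4.46-fold, in double-positive than in *gata2a* single-positive cells, with 63.9 RPM against 285 RPM, and had 52.2 RPM in *runx1* single-positive cells. *klf6a* (ENSDARG00000029072), which is widely expressed, had 79.3 RPM in double-positive cells, 40.7 RPM in *runx1* single-positive cells, and 67.6 RPM in *gata2a* single-positive cells. Its differences stayed under 2-fold in all 3 pairs, at 1.95-fold above *runx1* single-positive cells (1.70 to 2.23) and 1.17-fold above *gata2a* single-positive cells (1.05 to 1.32). *klf6b* had 1 read in *runx1* single-positive cells and none elsewhere.

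*dusp1* (ENSDARG00000100515) had 1299.8 RPM in double-positive cells (1275 to 1325), 231 RPM in *runx1* single-positive cells (220.4 to 241), and 858 RPM in *gata2a* single-positive cells (838 to 879). It had the largest ratio of the 10 genes between double-positive and *runx1* single-positive cells, 5.64-fold (5.37 to 5.92), and only 5.98% of all genes tested had a larger one. Against *gata2a* single-positive cells it was 1.51-fold higher (1.47 to 1.56). *dusp2*, a related phosphatase for MAP kinases, was 2.48-fold higher in double-positive than in *runx1* single-positive cells but had its highest value in *gata2a* single-positive cells, 128 RPM against 87.5 RPM in double-positive cells.

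Seen by pair of libraries, 8 of the 10 genes were over 2-fold higher in double-positive than in *runx1* single-positive cells and none was over 2-fold lower. Among all genes tested, 20.9% were over 2-fold higher and 12.7% over 2-fold lower. The 2 genes under the limit were *egr2b* at 1.84-fold and *klf6a* at 1.95-fold, and the genes just above it were *egr3* at 2.40-fold and *klf2a* at 2.80-fold. The intervals of *egr3* (1.95 to 2.97) and *klf2a* (1.45 to 5.75) reached under 2-fold. Those of *egr2b* (1.27 to 2.70) and *klf6a* (1.70 to 2.23) reached above it. The median log2 ratio was 1.70 for the 10 genes and 0.06 for all genes tested.

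Between double-positive and *gata2a* single-positive cells the 10 genes were closer. *egr1* alone was over 2-fold higher, and *egr2b* and *klf2a* were over 2-fold lower, beside 20.6% and 21.9% of all genes tested. These shares lie near those of all genes. The median log2 ratio was 0.33 for the 10 genes and 0.05 for all genes tested. Of the 10 genes, 7 were higher in double-positive cells, beside 6369 of the 12339 genes tested.

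In *runx1* single-positive cells, 9 of the 10 genes were over 2-fold lower than in *gata2a* single-positive cells and none was over 2-fold higher, beside 26.9% and 21.1% of all genes tested. *klf2a* was 15.0-fold lower (8.55 to 28.6), with 1.58 RPM in *runx1* single-positive against 23.7 RPM in *gata2a* single-positive cells. *egr2b* was 4.17-fold lower (3.0 to 5.88), *dusp1* 3.72-fold lower (3.54 to 3.92), and *egr1* 2.24-fold lower (2.06 to 2.44). *klf6a*, 1.66-fold lower (1.45 to 1.91), was the gene that stayed under the limit. The median log2 ratio was -1.5 for the 10 genes and -0.02 for all genes tested. The 3 pairs share libraries, so that the low values of *runx1* single-positive cells enter both pairs in which most of the genes differ.

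**Figure D2:**
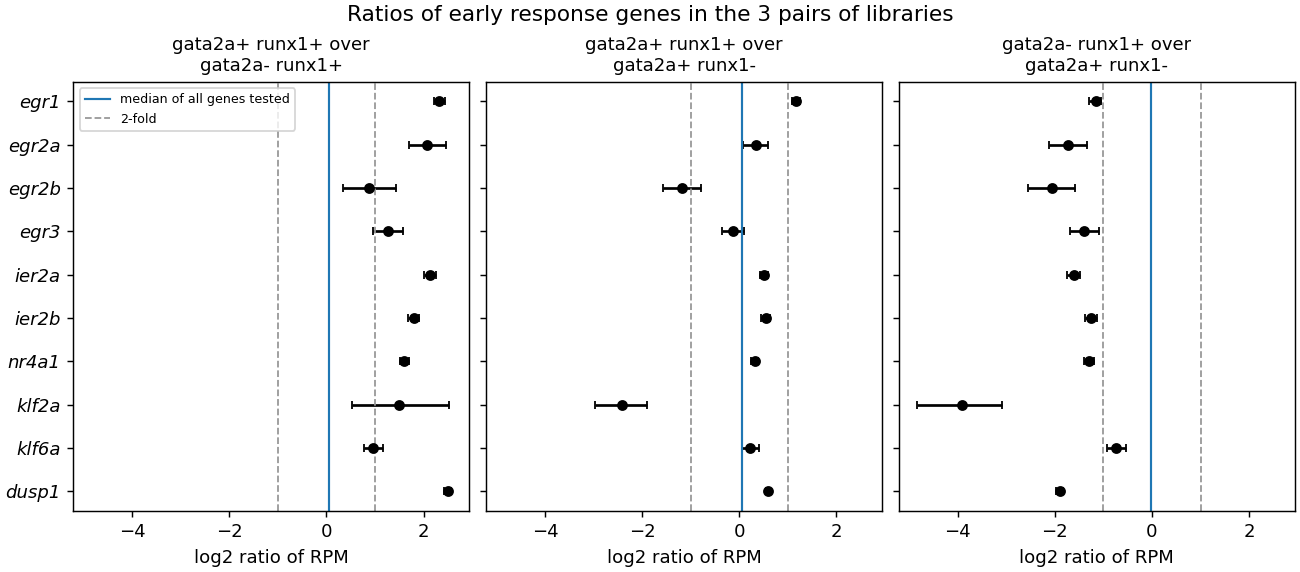
Log2 ratio of RPM of the 10 genes in the 3 pairs of libraries, with bars for the exact 95% interval of the ratio of reads, a blue line at the median of all 12339 genes tested, and dashed lines at 2-fold. All 10 points lie to the right of the median in double-positive over *runx1* single-positive cells and to the left of it in *runx1* single-positive over *gata2a* single-positive cells, whereas in double-positive over *gata2a* single-positive cells *klf2a* and *egr2b* lie far to the left and *egr1* to the right.

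Fisher's exact test of the reads, a test of 2 libraries rather than of populations, gave an adjusted p under 0.05 for 8549 genes between double-positive and *runx1* single-positive cells, 9969 between double-positive and *gata2a* single-positive cells, and 10207 between *runx1* single-positive and *gata2a* single-positive cells. Of the 12339 genes that passed the filter, 61.0% (7528 genes), 70.0% (8638 genes), and 72.5% (8941 genes) were called in the same pairs. With so many calls the test separates few genes from the rest. It called 10, 9, and 10 of the 10 early response genes in the same pairs, with *egr3* as the exception.

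Related genes did not keep a fixed ratio to each other, which is a comparison free of transcript length when made between libraries; the pairs were picked after their values had been seen. *egr2a* took 78.3% of the reads of *egr2a* and *egr2b* in double-positive cells (73.9% to 82.1%), 61.3% in *runx1* single-positive cells (52.4% to 69.6%), and 55.8% in *gata2a* single-positive cells (51.1% to 60.5%). The share in double-positive cells lay above both other intervals. *egr1* took 92.7% of the reads of *egr1* and *egr3* in double-positive cells (91.9% to 93.4%), 85.9% in *runx1* single-positive cells (83.5% to 88.0%), and 83.8% in *gata2a* single-positive cells (82.2% to 85.4%). *dusp1* in the same way took 93.7% of the reads of *dusp1* and *dusp2* in double-positive cells, 86.7% in *runx1* single-positive cells, and 87.0% in *gata2a* single-positive cells. In these 3 pairs of genes, the share of the gene named first was highest in double-positive cells and the intervals of the other libraries overlapped each other.

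The *ier2* and *klf2* copies followed another pattern, with the lowest share of the first copy in *runx1* single-positive cells. *ier2a* took 51.6% of the reads of both copies in double-positive cells (50.3% to 52.9%), 45.8% in *runx1* single-positive cells (43.3% to 48.4%), and 52.0% in *gata2a* single-positive cells (50.4% to 53.6%). *klf2a* took 6.49% of the reads of *klf2a* and *klf2b* in double-positive cells (4.72% to 8.85%), 2.95% in *runx1* single-positive cells (1.73% to 4.98%), and 7.68% in *gata2a* single-positive cells (6.70% to 8.79%). For *ier2a* the interval of *runx1* single-positive cells lay below both others, whereas for *klf2a* it overlapped that of double-positive cells. How reads that match several copies were counted is not given in the sources used here, and shares between near-identical copies are uncertain for that reason.

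**Figure D3:**
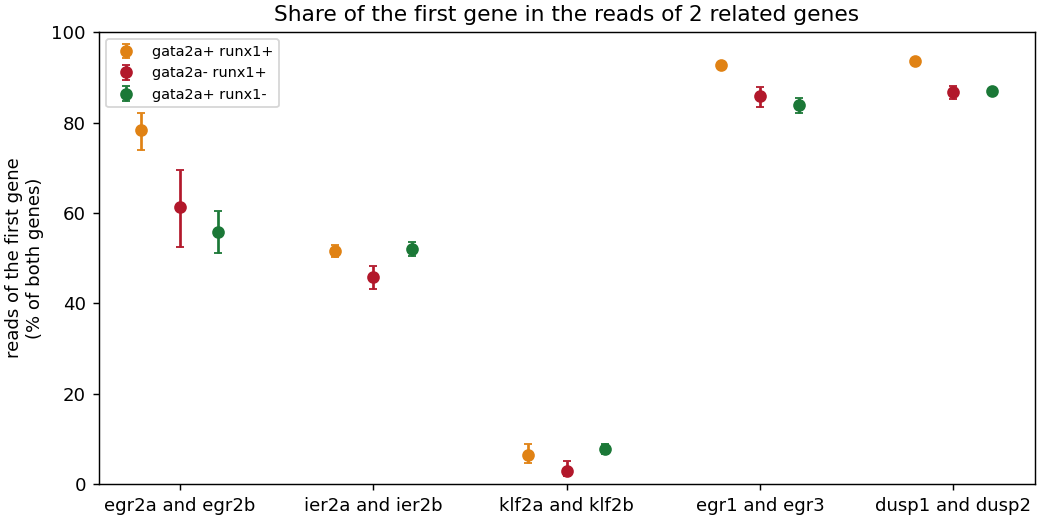
Share of the gene named first in the summed reads of 2 related genes, in percent, for each library, with 95% Wilson intervals. In double-positive cells *egr2a*, *egr1*, and *dusp1* have a higher share than in both other libraries, 78.3%, 92.7%, and 93.7%, while *ier2a* and *klf2a* have their lowest share in *runx1* single-positive cells, 45.8% and 2.95%.

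Other early response genes were less uniform. Of 60 symbols listed, 55 were found, under which 57 genes are listed, and 46 of these passed the filter. In double-positive against *runx1* single-positive cells 17 of the 46 were over 2-fold higher and 6 over 2-fold lower, with a median log2 ratio of 0.70. In double-positive against *gata2a* single-positive cells 8 were higher and 12 lower, with a median of -0.23. In *runx1* single-positive against *gata2a* single-positive cells 6 were higher and 22 lower, with a median of -0.86. Of all genes tested, 20.9% were higher and 12.7% lower in the first of these pairs. The shares were 20.6% and 21.9% in the second, and 21.1% and 26.9% in the third. The counts in double-positive against *gata2a* single-positive cells thus lie near the shares of all genes.

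Among the abundant genes of this list, *SOCS3* (ENSDARG00000025428), a cytokine signaling inhibitor, had 1339 RPM in double-positive cells, 163 RPM in *runx1* single-positive cells, and 774 RPM in *gata2a* single-positive cells. This order is that of *dusp1*. *btg2*, which restrains division, was 2.50-fold higher in double-positive than in *runx1* single-positive cells and nearly level with *gata2a* single-positive cells, at 549 RPM against 573 RPM. *cebpb*, a factor of myeloid and inflammatory gene expression, *bhlhe40*, a repressor active in lymphocytes, and *nfkbiab*, an inhibitor of NF-kB, were highest in *gata2a* single-positive cells. *cebpb* had 733 RPM in double-positive cells, 98.0 RPM in *runx1* single-positive cells, and 1690 RPM in *gata2a* single-positive cells. *bhlhe40* was 3.94-fold and *nfkbiab* 1.98-fold lower in double-positive than in *gata2a* single-positive cells. *mych*, a Myc family gene, went the other way, with 880 RPM in double-positive and 944 RPM in *runx1* single-positive cells against 413 RPM in *gata2a* single-positive cells.

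The AP-1 genes, Fos and Jun factors induced by the same stimuli, listed together with *atf3*, *JDP2*, and *batf*, had a similar center. Of the 14 listed, 10 passed the filter. In double-positive against *runx1* single-positive cells 8 of these were over 2-fold higher and 1 over 2-fold lower, with a median log2 ratio of 1.68. The lower one was *atf3*, with 2.34 RPM in double-positive and 5.36 RPM in *runx1* single-positive cells. In double-positive against *gata2a* single-positive cells 2 were higher and 3 lower, with a median of 0.10. In *runx1* single-positive against *gata2a* single-positive cells none was higher and 6 were lower, with a median of -1.67. The shares of all genes tested were 20.9% and 12.7%, 20.6% and 21.9%, and 21.1% and 26.9% in these pairs. *fosab* had 829 RPM in double-positive cells, 194 RPM in *runx1* single-positive cells, and 364 RPM in *gata2a* single-positive cells. *fosb* had 37.3 RPM in double-positive cells, 10.6 RPM in *runx1* single-positive cells, and 10.5 RPM in *gata2a* single-positive cells. Both were over 2-fold higher in double-positive cells than in both others, like *egr1*. *jun* was highest in *gata2a* single-positive cells like *klf2a*, with 25.0 RPM in double-positive cells, 6.46 RPM in *runx1* single-positive cells, and 71.3 RPM in *gata2a* single-positive cells. *fosl2* and both genes listed as *JUNB* were over 2-fold lower in *runx1* single-positive cells than in both others. *fosl2* had 28.6 RPM in double-positive cells, 4.63 RPM in *runx1* single-positive cells, and 25.1 RPM in *gata2a* single-positive cells. The *JUNB* gene with more reads (ENSDARG00000104773) had 348 RPM in double-positive cells, 122 RPM in *runx1* single-positive cells, and 343 RPM in *gata2a* single-positive cells. The other (ENSDARG00000074378) was 2.82-fold higher in double-positive than in *runx1* single-positive cells and had its highest value, 240 RPM, in *gata2a* single-positive cells.

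Genes acting upstream of Egr transcription or on Egr proteins did not share the difference of the 10 genes between double-positive and *runx1* single-positive cells. Of 16 such genes, 14 passed the filter. In that pair 3 were over 2-fold higher and 2 over 2-fold lower, with a median log2 ratio of 0.20. In double-positive against *gata2a* single-positive cells 1 was higher and 5 lower, with a median of -0.21. In *runx1* single-positive against *gata2a* single-positive cells 1 was higher and 8 lower. The median there was -1.08, against -1.5 for the 10 genes. Of all genes tested, 20.9% and 12.7%, 20.6% and 21.9%, and 21.1% and 26.9% were higher and lower in these pairs. Both genes listed as SRF, the factor that binds the serum response element, rested on few reads, 6 and 4 in double-positive cells, 23 and 6 in *runx1* single-positive cells, and 16 and 25 in *gata2a* single-positive cells. *MRTFB* (ENSDARG00000088307), an SRF coactivator, had 30 reads in double-positive cells, none in *runx1* single-positive cells, and 6 in *gata2a* single-positive cells, and was 4.98-fold higher in double-positive than in *gata2a* single-positive cells. *mrtfab*, another SRF coactivator, and the corepressor *NAB1* (ENSDARG00000042940) were 2.35-fold and 3.14-fold lower in double-positive than in *gata2a* single-positive cells.

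**Figure D4:**
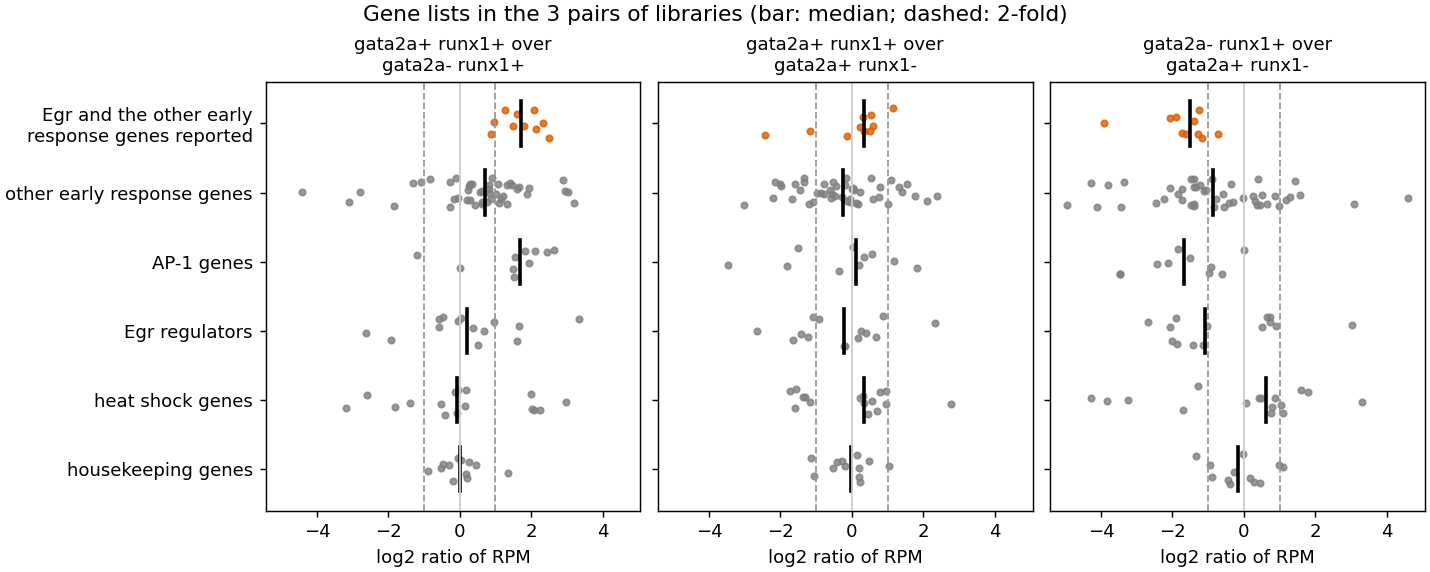
Log2 ratio of RPM for the genes of 6 lists that passed the filter, in the 3 pairs of libraries, with 1 point for each gene, a bar at the median of the list, and dashed lines at 2-fold. The 10 early response genes (orange) and the AP-1 genes have medians of 1.70 and 1.68 in double-positive over *runx1* single-positive cells, against 0.70 for other early response genes and -0.06 for heat shock genes.

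Heat shock genes, which also respond to handling, were mixed. Of 16 that passed the filter, 5 were over 2-fold higher and 4 over 2-fold lower in double-positive than in *runx1* single-positive cells. Their median log2 ratio was -0.06. Of all genes tested, 20.9% were over 2-fold higher and 12.7% over 2-fold lower in this pair. In double-positive against *gata2a* single-positive cells 1 was higher and 6 lower, with a median of 0.33, beside 20.6% and 21.9% of all genes. In *runx1* single-positive against *gata2a* single-positive cells 5 were higher and 5 lower, with a median of 0.62, beside 21.1% and 26.9%. In *runx1* single-positive cells, 5 of the 16 were over 2-fold lower than in both other libraries and 3 were over 2-fold higher. The share of all genes that differ from both other libraries was not counted. The lower ones included *hsph1*, a chaperone, with 25.1 RPM in double-positive cells, 6.34 RPM in *runx1* single-positive cells, and 15.4 RPM in *gata2a* single-positive cells. *hsp90aa1.1* was also lowest there, with 5.17 RPM in double-positive cells, 1.22 RPM in *runx1* single-positive cells, and 11.6 RPM in *gata2a* single-positive cells. The other 3 were *hspb1*, *hmox1a*, and the *HSPA8* gene with fewer reads (ENSDARG00000037403). In *runx1* single-positive cells these rested on only 6, 4, and 10 reads, and *hsp90aa1.1* on 10 reads. The higher ones were *hsp70.3*, *hsp70.1*, and *hspe1*. *hsp70.3*, an inducible chaperone, had 9.72 RPM in double-positive cells, 88.5 RPM in *runx1* single-positive cells, and 25.3 RPM in *gata2a* single-positive cells. *hsp70.1* had 1.85 RPM in double-positive, 11.2 RPM in *runx1* single-positive, and 5.44 RPM in *gata2a* single-positive cells. *hspe1*, a mitochondrial chaperone, was 2.62-fold lower in double-positive than in *runx1* single-positive cells. *HSP90AA1* (ENSDARG00000024746) was instead lowest in *gata2a* single-positive cells, with 241 RPM in double-positive cells, 346 RPM in *runx1* single-positive cells, and 35.3 RPM in *gata2a* single-positive cells. The abundant *hsp90ab1* and the *HSPA8* gene with more reads (ENSDARG00000068992) stayed under 2-fold in every pair. Of 12 housekeeping genes, 1 was over 2-fold higher and none over 2-fold lower in double-positive than in *runx1* single-positive cells, with a median log2 ratio of 0.00. The gene over the limit was *gapdh*, with 25 reads in double-positive cells, 10 in *runx1* single-positive cells, and 12 in *gata2a* single-positive cells. In double-positive against *gata2a* single-positive cells 1 of the 12 was over 2-fold higher and 2 were over 2-fold lower, with a median of -0.04. The higher one was again *gapdh*, at 2.08-fold. *gapdhs* was 2.09-fold and *actb1* 2.20-fold lower. In *runx1* single-positive against *gata2a* single-positive cells 1 was higher and 1 lower. The part of dissociation and sorting in the differences of the early response genes was not tested.

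Markers of blood lineages moved with the libraries. The summed RPM of 11 erythroid markers was 353 in double-positive cells, 3263 in *runx1* single-positive cells, where the early response genes were lowest, and 5.32 in *gata2a* single-positive cells, where *gata1a* and *klf1* were at 0. Of these sums the *SLC4A1* gene that was read most (ENSDARG00000012881) made up 267, 2463, and 4.20 RPM, and *alas2* was at 0 in all libraries. The summed RPM of 11 B cell markers was 72.5 in double-positive cells, 13.5 in *runx1* single-positive cells, and 2600.0 in *gata2a* single-positive cells. In these last cells *klf2a*, *egr2b*, and *egr3* were highest, *egr3* with 40.9 RPM against 37.4 RPM in double-positive cells. Of the B cell sums *ighm* made up 64.9 RPM in double-positive, 11.2 RPM in *runx1* single-positive, and 2023 RPM in *gata2a* single-positive cells. *pax5* and *ighz* were at 0 in double-positive and *runx1* single-positive cells. *rag2* went the other way, with 9 reads in double-positive cells and none in the other libraries.

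Markers of the other cell types were less uniform. The 8 neutrophil markers summed to 447 RPM in double-positive cells, 556 RPM in *runx1* single-positive cells, and 890 RPM in *gata2a* single-positive cells, but the single genes differed in order. *ncf1*, an oxidase subunit, was highest in *gata2a* single-positive cells with 469 RPM, as was *npsn* with 361 RPM. *mpx*, the myeloperoxidase gene, was highest in *runx1* single-positive cells, with 106 RPM in double-positive cells, 214 RPM in *runx1* single-positive cells, and 50.3 RPM in *gata2a* single-positive cells. *mmp9* was highest in double-positive cells with 36.6 RPM. Of the 17 genes listed as macrophage markers, 12 had a read in double-positive, 8 in *runx1* single-positive, and 13 in *gata2a* single-positive cells. Of the 7 that passed the filter, none was over 2-fold higher and 4 were over 2-fold lower in double-positive than in *gata2a* single-positive cells. The median log2 ratio of the 7 genes was -1.65 in this pair. The shares of all genes tested were 20.6% and 21.9%. Only *marco* of the 7 genes was higher in double-positive cells, with 17.0 RPM against 9.64 RPM in *gata2a* single-positive cells. In double-positive against *runx1* single-positive cells 3 of the 7 were over 2-fold higher and 1 over 2-fold lower, with a median of 0.48. In *runx1* single-positive against *gata2a* single-positive cells none was higher and 6 were lower, with a median of -3.08. The shares of all genes tested were 20.9% and 12.7%, and 21.1% and 26.9%, in these 2 pairs. The 10 endothelial markers summed to 36.1 RPM in double-positive cells, 27.7 RPM in *runx1* single-positive cells, and 164 RPM in *gata2a* single-positive cells. Of these sums *tek* alone made up 32.6, 21.8, and 37.6 RPM in the same order. *kdrl* made up 85.6 RPM of the sum in *gata2a* single-positive cells. *kdrl*, *flt1*, and *egfl7* were at 0 in double-positive and *runx1* single-positive cells. Both genes listed as *CLDN5* were instead highest in *runx1* single-positive cells, with 3.90 and 1.22 RPM. Of the 7 endothelial genes that passed the filter, 5 were over 2-fold lower in double-positive than in *gata2a* single-positive cells and 1 was higher. Their median log2 ratio was -4.04 in this pair. In *runx1* single-positive against *gata2a* single-positive cells 5 were likewise lower and 1 higher, beside 26.9% and 21.1% of all genes tested. The T and NK cell list summed to 6.53 RPM in double-positive cells, 1.58 RPM in *runx1* single-positive cells, and 31.3 RPM in *gata2a* single-positive cells.

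The thrombocyte list summed to 194 RPM in double-positive cells, 720.5 RPM in *runx1* single-positive cells, and 401 RPM in *gata2a* single-positive cells. The last sum was mostly *nfe2*, which is also expressed in other blood cells, with 367 RPM. *itga2b*, a defining thrombocyte gene, had 37.8 RPM in double-positive cells, 368 RPM in *runx1* single-positive cells, and 0.37 RPM in *gata2a* single-positive cells, where *gp9* was at 0. *mpl* and the *ITGB3* gene with more reads (ENSDARG00000045070) were instead highest in double-positive cells, with 5.91 and 8.37 RPM. Of 7 list genes that passed the filter, 3 were over 2-fold higher and 4 over 2-fold lower in double-positive than in *runx1* single-positive cells. The shares of all genes tested were 20.9% and 12.7%. The kidney tubule list summed to 723 RPM in double-positive cells, 771 RPM in *runx1* single-positive cells, and 479 RPM in *gata2a* single-positive cells. Of these sums *SLC20A1* (ENSDARG00000010641), a phosphate transporter gene not restricted to tubules, made up 690.5, 723, and 449 RPM in the same order. Of the defining tubule genes, *slc12a3* was at 0 in all 3 libraries and *cdh17* was at 0 in double-positive and *runx1* single-positive cells. In *gata2a* single-positive cells *cdh17* had 23 reads, *cubn* 27, and *SLC4A4* (ENSDARG00000013730) 28, the highest of the 3 libraries for each. *lrp2a* and *atp1a1a.4* were instead highest in double-positive cells, with 9 and 8 reads. The part of the mixture of cell types in the differences of the early response genes was not tested.

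The genes whose differences between libraries were closest in size to those of *egr1* were sought among the 6667 named genes that averaged 10 RPM or more. The measure was the distance of log2(RPM + 1) over the 3 libraries after each gene's mean was subtracted. The nearest 5 were *ppp2r3b*, *adam19a*, *RFX2*, *SETBP1*, and *si:ch73-208g10.1*, at distances between 0.05 and 0.17. *ppp2r3b*, for instance, had 50.6 RPM in double-positive cells, 8.90 RPM in *runx1* single-positive cells, and 21.3 RPM in *gata2a* single-positive cells. Of the other early response genes examined, *ier2a* was the nearest, at rank 38 and a distance of 0.47, followed by *ier2b* at rank 40, *dusp1* at rank 62, *egr2a* at rank 78, and *nr4a1* at rank 101. *egr3* and *klf6a* were at ranks 355 and 361, and *egr2b* at rank 2468. *klf2a* had a mean under 10 RPM and was not ranked. With 3 libraries a likeness of this kind is shared by many genes.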

How the data were processed

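RNA from sorted cells was amplified by Quartz-Seq, without molecular identifiers, and libraries were made with Nextera XT and sequenced on an Illumina NextSeq. Per the labels and the study's methods, HISAT2 2.1.0 was used by the authors for mapping, with GRCz11 as the genome, and Subread 1.6.4 for the deposited RPM, which has 2 decimals. The annotation release, the use of strand, and the counting of reads with several matches are not given in the sources used here.

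The reads were recovered as the total per library at which all RPM values were whole numbers of reads and summed to that total, which was tested on simulated data. Ratios took 3 reads or fewer as 3 reads, and the limit of 2-fold follows the study. Fisher's exact test (scipy 1.17.1) was adjusted by Benjamini-Hochberg over all genes read in either library. Alternatives were fold limits of 1.5 and 3, pseudocounts of 1 and 5 RPM, a minimum mean of 5 RPM, leaving out each library's 20 most-read genes, and rescaling by edgeR 4.0.16 (TMM) or DESeq2 1.42.0 in R 4.3.3.

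The 10 genes and the other lists were chosen with earlier results of these data known. Besides the 10 genes, the text names from the early response, AP-1, Egr regulator, heat shock, and housekeeping lists genes over 2-fold higher or lower in a library than in both others, at most 6 per list by mean RPM, and the 5 genes nearest to *egr1*. A gene that this rule would name is not reported here. Relatives of the 10 genes, marker genes, *atf3*, *actb1*, and the heat shock genes beyond these 6 were named after their values were seen. Symbols came from a table that pairs them with Ensembl identifiers, from the study's gene table, and from RefSeq synonyms of GRCz12tu, used for names only. Symbols not found there were left out.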

Additional observations from a re-analysis of the deposited data

How the results depend on the processing

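The direction of all 30 ratios, the 10 genes in 3 pairs, held under the rescalings by TMM and DESeq2 and the removal of abundant genes. The pseudocounts could not change a direction, since the same value is added to both libraries. Nor could the minimum of 5 RPM, which left out none of the 10 genes. The 54 counts of genes over the limit include those under the minimum of 5 RPM, which could not move. Counts reported as 0 stayed at 0 under every setting. Under the limit of 3, the pseudocounts, and the added Fisher's exact test they could not rise, so those settings do not check them. Of the 54 counts, 49 stayed within 1.5 times the reported value. The exceptions concern small counts or the limit itself. Between double-positive and *gata2a* single-positive cells, 2 genes (*egr1* and *dusp1*) were over 1.5-fold higher and 0 over 3-fold higher, against 1 over 2-fold. In the same pair 1 gene (*klf2a*) was over 3-fold lower, and 1 was over 2-fold lower with 5 RPM added, against 2. In *runx1* single-positive against *gata2a* single-positive cells 5 genes were over 3-fold lower, against 9 over 2-fold. The DESeq2 size factors lowered all log2 ratios of double-positive over *gata2a* single-positive cells by 0.10, which left *egr1* at 1.06. With 5 RPM added, which shrinks ratios of low genes, the log2 ratio of *klf2a* in double-positive over *runx1* single-positive cells was 0.52, under 2-fold, against 1.48. With 1 library per population, leaving out a replicate could not be done. No paired analysis was possible because there is 1 library per population.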

Other observations

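Some early response genes went against the order of the 10 genes described, and are given here as chosen after their values were seen. The gene listed as *CCN2* (ENSDARG00000042934), which encodes a matricellular protein and is a target of Yap signaling, had 5.17 RPM in double-positive cells, 109 RPM in *runx1* single-positive cells, and 4.57 RPM in *gata2a* single-positive cells. Its relative *ccn1* had 14.7 RPM in double-positive cells, 101 RPM in *runx1* single-positive cells, and 37.3 RPM in *gata2a* single-positive cells. Both were thus highest where *egr1* and *dusp1* were lowest.

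The copies of *csrnp1*, a nuclear protein, had opposite orders. *csrnp1a* had 24.6 RPM in double-positive cells, 88.4 RPM in *runx1* single-positive cells, and 74.0 RPM in *gata2a* single-positive cells. The copy listed as *CSRNP1* (ENSDARG00000038429) had 78.5 RPM in double-positive cells, 20.4 RPM in *runx1* single-positive cells, and 29.8 RPM in *gata2a* single-positive cells. Like *egr1*, the kinase genes *sik1* and *plk3* were over 2-fold higher in double-positive cells than in both other populations. *sik1* was 3.16-fold higher than in *runx1* single-positive and 4.32-fold higher than in *gata2a* single-positive cells, and *plk3* was 2.65-fold and 5.22-fold higher.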
